A study of Rattus norvegicus with 31 samples.

Results

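Androgen-responsive genes of Sertoli cells, the somatic cells that nurse the germ cells inside the seminiferous tubules, were followed in the irradiated rat testis under 3 hormonal treatments. The set held 10 genes, Rhox5, Eppin, Tubb3, Cldn3, Cldn11, Pcsk5, Serpina5, Corin, Tpd52l1 and Defb24, and was taken by gene symbol. Of these, 9 had a probe set that carried their symbol alone on the Affymetrix rat array, with 13 probe sets in all among 31042 other than controls and 14217 named genes. Corin, the protease that activates atrial natriuretic peptide, had none and was not analysed here. Each gene was read from its probe set of highest mean over the 31 arrays.

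Total RNA came from testes of LBNF1 rats of 25 to 27 weeks whose lower abdomen had been irradiated with 6 Gy, and this holds for all groups. The sham-treated group held 14 arrays. Hormone ablation, in 11 arrays, was a GnRH antagonist combined with flutamide, which blocks the androgen receptor. The last group, of 6 arrays, received both kinds of antagonist together with estradiol and is called estradiol plus ablation. The label of these 6 also speaks of FSH supplementation, while the series design calls the group ablation plus estradiol. There was no unirradiated group. The descriptions call 10 of the sham arrays control and 4 irradiated, although the treatment label is the same. The 6 estradiol arrays were deposited later than the other 25, so this treatment and the deposit cannot be told apart. The labels call every array a biological replicate and do not say whether animals were pooled.

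Testosterone from Leydig cells, made under the drive of luteinizing hormone, binds the androgen receptor of Sertoli cells, of the peritubular myoid cells around the tubule and of Leydig cells themselves. Germ cells do not need the receptor, so androgen acts on spermatogenesis through somatic cells. In Sertoli cells the receptor binds paired DNA half-sites and switches genes on or off. Rhox5, a homeobox transcription factor of the X chromosome, is the classical androgen-dependent Sertoli gene of the mouse. GnRH antagonists stop the release of both gonadotropins, and estradiol feeds back on the same axis.

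The promoters of the genes that fell most with ablation, Defb24, Tubb3 and Eppin, are shown because half-sites for the androgen receptor could be looked for in them. Each line gives the 250 bases before the RefSeq start in build GRCr8, 5′ to 3′ on the strand of the gene. They lie at chr3:161512984-161513233 on the minus strand for Defb24, at chr19:68365437-68365686 on the plus strand for Tubb3 and at chr3:173738652-173738901 on the minus strand for Eppin. Capitals mark 2 half-sites in inverted repeat, 3 bases apart, with at most 1 mismatch per half-site.
Defb24: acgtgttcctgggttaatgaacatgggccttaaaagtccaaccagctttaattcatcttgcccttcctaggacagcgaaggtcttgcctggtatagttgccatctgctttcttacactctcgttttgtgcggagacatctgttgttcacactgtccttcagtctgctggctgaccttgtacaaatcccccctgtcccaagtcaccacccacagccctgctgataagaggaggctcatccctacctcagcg
Tubb3: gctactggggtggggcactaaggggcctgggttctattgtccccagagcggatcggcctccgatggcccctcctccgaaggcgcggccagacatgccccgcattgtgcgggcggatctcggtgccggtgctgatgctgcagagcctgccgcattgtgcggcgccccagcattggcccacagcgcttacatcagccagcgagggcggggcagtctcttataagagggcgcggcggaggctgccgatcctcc
Eppin: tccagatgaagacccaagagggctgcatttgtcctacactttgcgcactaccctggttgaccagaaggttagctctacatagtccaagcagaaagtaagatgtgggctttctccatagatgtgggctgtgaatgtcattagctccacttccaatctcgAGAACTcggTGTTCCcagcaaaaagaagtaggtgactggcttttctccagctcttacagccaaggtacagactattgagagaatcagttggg
The search used AGAACA and its reverse complement TGTTCT, on both strands, in windows of 300 bases that reach from 250 before to 50 after the start. Windows were given for 9 of the 10 genes, Corin included, and none for Rhox5. An exact half-site was found in 0 of the 9, while 20.7% of all 33469 promoter windows of that length held one. The paired repeat, AGAACA followed by any 3 bases and TGTTCT with up to 1 mismatch per half-site, was found in 1 of the 9 and in 1.09% of all windows. That window was the one of Eppin, with AGAACT beginning at -92 and TGTTCC at -83 from the start. These are matches of letters and not measured binding, and a window without a match says only that these letters are not in it.

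The array medians lay between -1.44 and -1.24 on the deposited log2 scale. The 40th percentile of each array, between -1.93 and -1.75, served as the filter level, and a group mean below it is called near background. A probe set was tested where it exceeded that level in at least 6 arrays, which kept 21269. The signal that only 1 in 1000 probe sets of an array exceeds is called its bright-signal level here. It was below 4.9 in 4 arrays, 2 sham and 2 estradiol, whose bright signals are called compressed. The 3′ signal of the actin control exceeded the 5′ signal by 0.46 to 2.41 in the sham and by 1.19 to 1.91 in the ablation arrays, and the estradiol arrays have no control values here. Tnp1, a transition protein of spermatids, was above the filter level in 3 sham, 3 ablation and 0 estradiol arrays. The label of testis was checked against markers: 11 of the 12 Sertoli markers and all 10 Leydig markers with a probe set passed the filter, while 8 of 10 spermatocyte and spermatid markers were near background in the sham arrays. Within the sham group, limma called 0 of 21269 probe sets by description (513 at an unadjusted p under 0.05), and no second method was run for that count. Among the 7 genes tested here, irradiated minus control ran from -0.15 for Cldn11 to 0.16 for Tpd52l1.

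Of the 9 genes with a probe set, 7 were tested and 2, Rhox5 and Cldn3, were near background in all 3 groups. Eppin was above the filter level in 14 sham arrays, in 1 ablation array and in 1 estradiol array. It entered the test through the sham group alone, where it was high, so its inclusion itself favours a difference. The other 6 were above the filter level in every array.

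Ablation against sham asks what loss of gonadotropin and androgen action did in irradiated testes. Defb24, Tubb3 and Eppin fell, and every ablation array lay below every sham array for each of them. Pcsk5 fell slightly, and Serpina5, Cldn11 and Tpd52l1 did not pass the test. In all, 4 of the 7 genes tested were called lower and 0 higher by limma at an adjusted p under 0.05, against 10.3% of all probe sets called lower and 9.15% called higher. The groups were fully apart for 3 of the 7, against 1.4% of all probe sets in which every ablation array was below every sham array. Eppin, which entered the test through the sham group alone, is counted in both. The genes were also chosen with earlier results of these data known, so the counts beside these shares are descriptions. The median log2 change of the 7 was -0.29, and that of all probe sets was 0.016. Since each array holds RNA of a whole testis, fewer cells of a type and less RNA per cell cannot be told apart in any of these values.

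**Figure D1:**
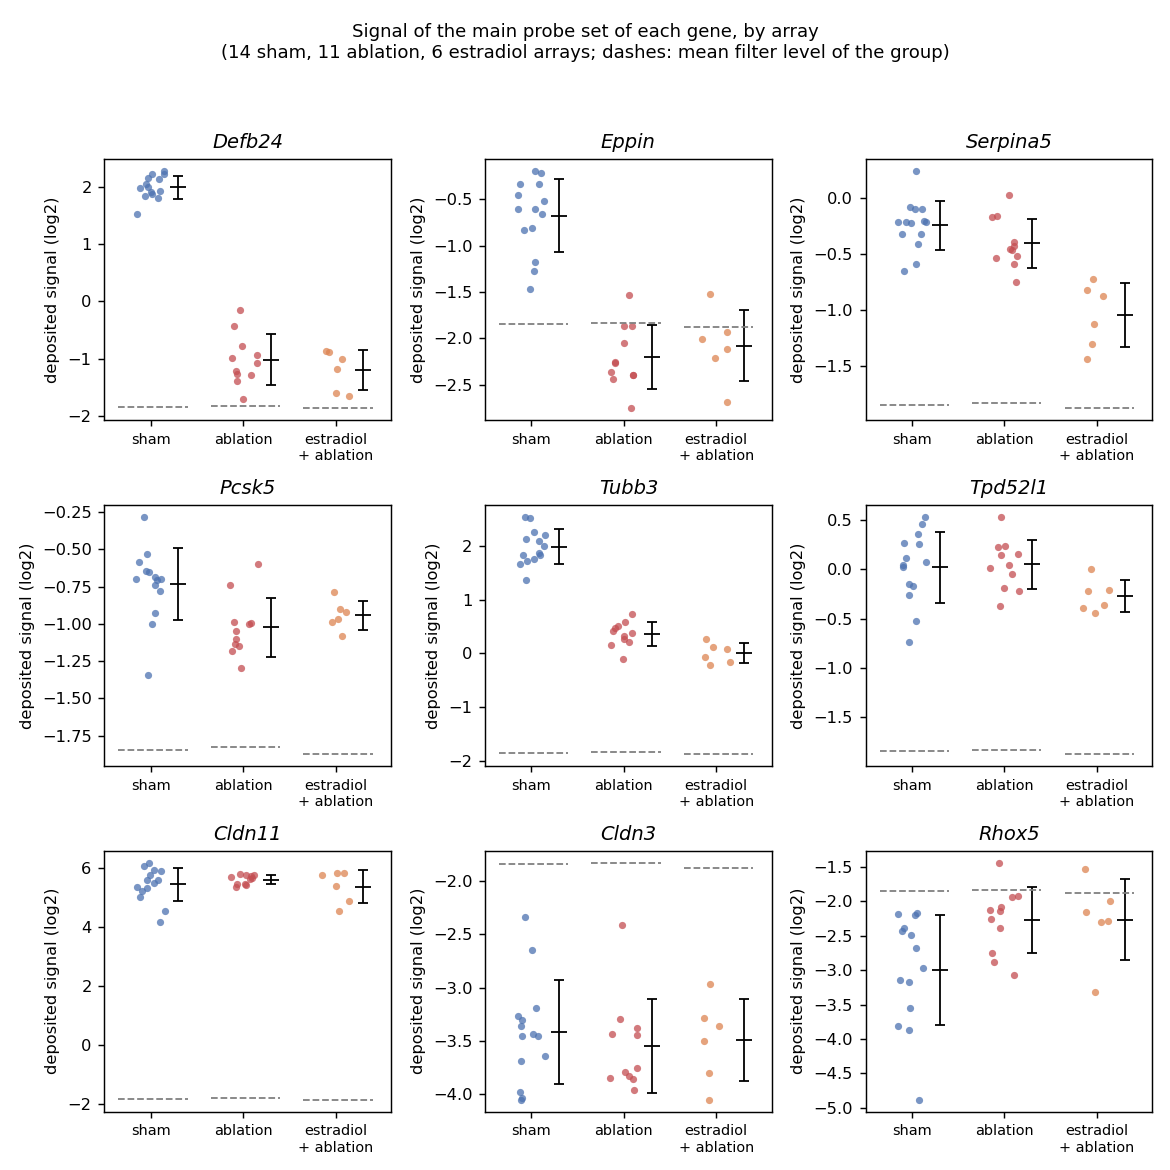
Deposited signal (log2) of the main probe set of 9 genes in each array of the sham, ablation and estradiol plus ablation groups; bars give the mean and SD of the group and dashes its mean filter level. Defb24, Tubb3 and Eppin were lower in all ablation arrays than in any sham array, and Cldn3 and Rhox5 lay near background in every group.

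Among the secreted proteins, Defb24 encodes a beta-defensin, one of a family of small cationic peptides that kill microbes and, in the male tract, coat sperm. Its signal in the sham arrays ran from 1.54 over a median of 2.00 to 2.28. In the ablation arrays it ran from -1.71 over -1.07 to -0.14, and in the estradiol arrays from -1.66 over -1.10 to -0.87. The highest ablation array was still below the lowest sham array, and all 17 treated arrays stayed above the filter level. The log2 change with ablation was -3.03 ± 0.13 (SE, 11 against 14 arrays, adjusted p = 3.58e-20), an 8.15-fold lower signal. Of 55 beta-defensin entries 5 had a probe set and 3 were tested. Defb24 was the 1 called, against 10.3% of all probe sets called lower and 9.15% called higher. Defb22 had a log2 change of -0.38 (adjusted p = 0.0732) and Spag11a, near background in all groups, one of 0.22 (adjusted p = 0.644).

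Eppin encodes a protease inhibitor of the sperm surface that joins a whey acidic protein (WAP) domain with a Kunitz domain. Its signal in the sham arrays ran from -1.47 over -0.60 to -0.20. In the ablation arrays it ran from -2.76 over -2.27 to -1.53, and in the estradiol arrays from -2.69 over -2.06 to -1.52. The lowest sham array and the highest ablation array were close, but the groups did not overlap. The log2 change was -1.52 ± 0.15 (adjusted p = 7.41e-10), a 2.87-fold lower signal. With every value under the filter level raised to it, the change was -1.13, or 2.19-fold, which is the part of the fall that lies above background.

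Of 20 WAP and Kunitz domain genes 10 were tested, and 5 were called lower and 0 higher, Eppin among them. The median of the 10 was -0.37, and 10.3% of all probe sets were called lower and 9.15% higher. Wfdc2, a WAP protein of epithelia, fell by 1.85 ± 0.38 on the log2 scale (adjusted p = 3.99e-04), most of it below the filter level. It was above that level in 9 sham arrays and 0 ablation arrays, and with values raised to the level its change was -0.39. So 2 of the 5 called, Eppin and Wfdc2, were near background after ablation, and the other 3 were above the level in both groups. Eppin and Wfdc2 entered the test through the sham group, where they were high, so their inclusion itself favours a difference. Tfpi, the Kunitz-type inhibitor of tissue factor, fell by 0.98 ± 0.10 (adjusted p = 4.47e-10), and Tfpi2 fell by 0.45 ± 0.14 (adjusted p = 0.022). The other called gene was Wfdc1, with a change of -0.37 (adjusted p = 0.0303), outside the 4 named by smallest p and added after its value was seen.

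Serpina5 encodes the protein C inhibitor, a serpin of clade A that blocks serine proteases in blood and in the male tract. Its signal ran from -0.64 over -0.21 to 0.24 in the sham arrays and from -0.74 over -0.45 to 0.03 in the ablation arrays. The ranges overlapped almost wholly. The log2 change of -0.16 (95% interval -0.36 to 0.04, adjusted p = 0.27) did not pass the test. Of 13 serpins of clade A 6 were tested, and 1 was called, against 10.3% of all probe sets called lower and 9.15% called higher. It was Serpina3n, an antichymotrypsin-like inhibitor, which fell by 0.78 ± 0.15 (adjusted p = 2.44e-04). Serpina3n was near background in the ablation group, and with values raised to the filter level its change was -0.38. It was above that level in 12 sham and 2 ablation arrays. It thus entered the test through the sham group, so its inclusion itself favours a difference.

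Pcsk5 encodes a proprotein convertase, an enzyme that cuts hormone and receptor precursors at basic residues. Its signal ran from -1.34 over -0.70 to -0.28 in the sham arrays, from -1.29 over -1.05 to -0.60 in the ablation arrays and from -1.08 over -0.94 to -0.79 in the estradiol arrays. The ranges overlapped, and 10 of 11 ablation arrays were below the sham mean. The log2 change was -0.29 ± 0.09 (adjusted p = 0.0264), a 1.22-fold lower signal. This call was lost when the sham group was limited to the 4 arrays whose description says irradiated (-0.18, adjusted p = 0.419), without the 4 arrays of compressed bright signals (-0.28, adjusted p = 0.0503), without the arrays with Tnp1 (-0.27, adjusted p = 0.0973) and without ablation replicate 11 (-0.26, adjusted p = 0.0545). The other 2 probe sets of Pcsk5 were near background in all groups and were not tested. Of 9 proprotein convertases 6 were tested, and Pcsk5 was the 1 called, against 10.3% of all probe sets called lower and 9.15% called higher.

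Tubb3 encodes the class III beta-tubulin, a microtubule protein best known from neurons that Sertoli cells also make. Its signal in the sham arrays ran from 1.37 over 1.93 to 2.54. In the ablation arrays it ran from -0.11 over 0.37 to 0.74, and in the estradiol arrays from -0.22 over 0.01 to 0.26. All treated arrays were well below the lowest sham array. The log2 change with ablation was -1.62 ± 0.11 (adjusted p = 1.80e-14), a 3.08-fold lower signal. The name of this probe set carries the suffix s, which marks probes that match more than 1 transcript. A second Tubb3 probe set was near background in every group and had a change of 0.14 with ablation (adjusted p = 0.618). With the mean of both probe sets the change was -0.74.

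Of 8 beta-tubulin genes 7 were tested, with a median of -0.16. Among them 3 were called lower and 0 higher, against 10.3% and 9.15% of all probe sets. Beside Tubb3 these were Tubb2a, which fell by 0.81 ± 0.10 (adjusted p = 1.43e-07), and Tubb5, which fell by 0.45 ± 0.09 (adjusted p = 3.80e-04). Beta-tubulins are close in sequence, so signals of the family can share probes.

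Cldn11 encodes the main claudin of the blood-testis barrier, the belt of tight junctions between Sertoli cells. Its signal ran from 4.18 over 5.54 to 6.18 in the sham arrays, from 5.35 over 5.66 to 5.80 in the ablation arrays and from 4.52 over 5.57 to 5.82 in the estradiol arrays. The ablation range lay inside the sham range. The log2 change with ablation was 0.17 (95% interval -0.18 to 0.52, adjusted p = 0.555), and a second probe set gave -0.35 (adjusted p = 0.243). The 2 probe sets ran in opposite directions within groups, with Pearson r of -0.43 in 14 sham, -0.87 in 11 ablation and -0.83 in 6 estradiol arrays.

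The low values of the main Cldn11 probe set belonged to the compressed arrays. It read 4.52 and 4.18 in sham replicates 1 and 5 and 4.89 and 4.52 in estradiol replicates 1 and 5, where the second probe set read 3.43, 2.99, 2.91 and 2.71. In the other arrays the main probe set averaged 5.62 ± 0.36 (SD, n = 12) in the sham group, 5.60 ± 0.16 (n = 11) in the ablation group and 5.69 ± 0.21 (n = 4) in the estradiol group. Without the compressed arrays the change with ablation was -0.013. With group means removed, the main probe set followed the bright-signal level of its array with r = 0.95 over 31 arrays. The probe set itself lies close to that level.

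**Figure D2:**
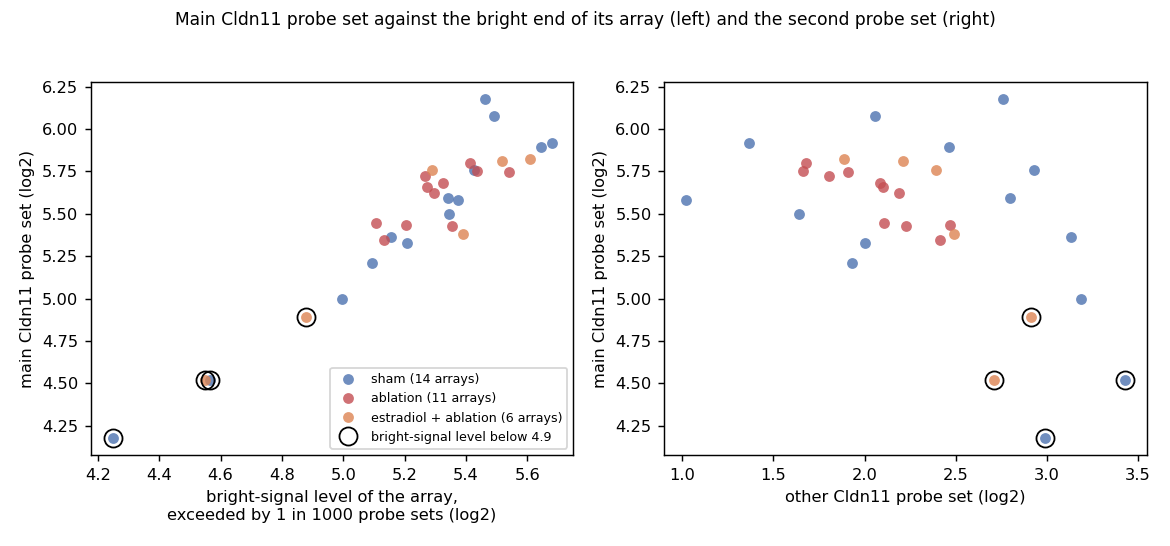
Main Cldn11 probe set (log2, vertical axes) in 31 arrays against the bright-signal level of the array (left) and against the second Cldn11 probe set (right), coloured by group, with rings on the 4 arrays whose level is below 4.9. The ringed arrays hold the lowest values of the main probe set, between 4.18 and 4.89.

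Cldn3, a claudin found at newly forming tight junctions between Sertoli cells, was near background. Its signal ran from -4.05 over -3.45 to -2.34 in the sham arrays, from -3.96 over -3.76 to -2.41 in the ablation arrays and from -4.05 over -3.43 to -2.97 in the estradiol arrays. No array of any group reached the filter level, so no test of Cldn3 was made. Of 15 tight junction genes 10 were tested. With ablation 0 were called lower and 3 higher, against 10.3% and 9.15% of all probe sets. Ocln, which encodes the junction protein occludin, rose by 0.49 ± 0.10 (adjusted p = 4.14e-04), Cldn12 rose by 0.47 ± 0.12 (adjusted p = 0.00546) and Tjp1, the scaffold under the junction, rose by 0.29 ± 0.09 (adjusted p = 0.0198).

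Tpd52l1 encodes a coiled-coil protein of the TPD52 family, which acts in vesicle traffic. Its signal ran from -0.73 over 0.06 to 0.53 in the sham arrays, from -0.37 over 0.05 to 0.53 in the ablation arrays and from -0.44 over -0.29 to 0.01 in the estradiol arrays. The sham and ablation ranges overlapped, with a change of 0.029 (95% interval -0.21 to 0.27, adjusted p = 0.9). Of 3 tested genes of that family 1 was called, against 10.3% of all probe sets called lower and 9.15% called higher. It was Tpd52, which rose by 0.61 ± 0.11 (adjusted p = 1.10e-04).

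Rhox5 read from -4.88 over -2.82 to -2.17 in the sham arrays, from -3.07 over -2.14 to -1.44 in the ablation arrays and from -3.32 over -2.22 to -1.53 in the estradiol arrays. Only 1 ablation array and 1 estradiol array were above the filter level, and no sham array was. The numerical difference went upward, by 0.73 (95% interval 0.19 to 1.26, adjusted p = 0.0676 in the fit without the filter), between values that are near background on both sides. Rhox9 was the 1 other gene of 12 entries of the Rhox family with a probe set, and it too was near background in all groups.

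**Figure D3:**
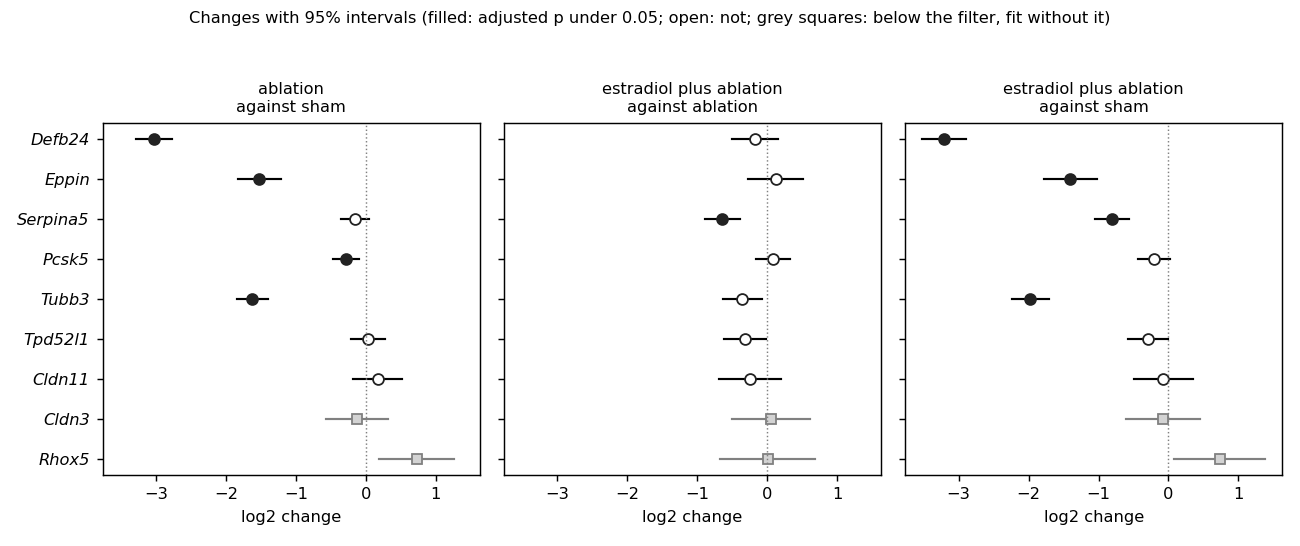
Log2 change (horizontal axes) of 9 genes in the 3 comparisons with 95% intervals; filled circles passed an adjusted p of 0.05, open circles did not, and grey squares are the 2 genes near background, from the fit without the filter. With ablation 4 genes were called lower, and with estradiol added to ablation 1 was.

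Estradiol plus ablation against ablation asks what estradiol added to the ablated state. Serpina5 fell, and the other 6 genes tested did not pass. The call was 1 lower and 0 higher of 7, against 4.92% of all probe sets called lower and 0.592% called higher. None of the 7 was fully apart between these groups, against 1.35% of all probe sets in which every estradiol array was below every ablation array. The median change was -0.24 for the 7 and -0.030 for all probe sets. The balance of all calls moved with scaling: 10.7% of them were higher on the deposited values, 24% with quantile normalization and 20.1% with the array medians set equal.

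Serpina5 ran from -1.43 over -0.99 to -0.72 in the 6 estradiol arrays. Of these, 5 lay below every ablation array and the highest overlapped the lowest ablation array. The log2 change was -0.64 ± 0.12 (SE, 6 against 11 arrays, adjusted p = 6.44e-04), a 1.56-fold lower signal. It was -0.60 without the compressed arrays (adjusted p = 0.00489), -0.62 after quantile normalization and -0.60 with equal array medians. Among the 6 tested serpins of clade A it was the 1 called, against 4.92% of all probe sets called lower and 0.592% called higher.

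Leydig markers were read beside Serpina5, and the 10 had a median change of 0.091. Among them 4 were called lower and 0 higher, against 4.92% and 0.592% of all probe sets. The 4 were Insl3 (-1.89 ± 0.23), Cyp17a1 (-1.85 ± 0.14), Ces1d (-1.49 ± 0.19) and Cyp11a1 (-0.56 ± 0.13), with Insl3 near background in the estradiol arrays. The other 6 had positive changes that did not pass, from 0.088 for Hsd11b1 to 0.43 for Nr5a1. The mean signal of the 10 lay between 1.01 and 1.59 in the ablation arrays and between 0.57 and 1.11 in the estradiol arrays. Within groups, Serpina5 correlated with that mean at r = 0.64 and with the mean of the 11 Sertoli markers at r = 0.60 over the 31 arrays. It also correlated with the bright-signal level of the array at r = 0.45, whose part in the other 2 values was not tested. Of the 3 tested epididymal markers 1 was called lower and 1 higher between these groups, with a median change of -0.044. Cst8, an epididymal cystatin, fell by 0.54 ± 0.12 (adjusted p = 0.00467), and Aqp9, a water channel, rose by 0.41 ± 0.12 (adjusted p = 0.0349). Of the 5 tested spermatocyte and spermatid markers 1 was called lower, Prm1, and 0 higher. Prm1 was above the filter level in 6 sham, 8 ablation and 0 estradiol arrays. It entered the test through the sham and ablation groups, so its inclusion itself favours a difference. With values raised to the level its change was -2.06. The part of any of these markers in the Serpina5 result was not tested.

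The falls of Defb24, Tubb3 and Eppin seen with ablation were neither called deeper nor called reversed with estradiol. The change of Defb24 was -0.18 (95% interval -0.51 to 0.15, adjusted p = 0.647), that of Eppin 0.12 (interval -0.27 to 0.51, adjusted p = 0.816) and that of Tubb3 -0.36 (interval -0.63 to -0.080, adjusted p = 0.138). All 6 estradiol arrays were below the ablation mean for Tubb3, and 2 of them below every ablation array. Eppin stayed near background in both groups. Tpd52l1 had a change of -0.32 (interval -0.62 to -0.020, adjusted p = 0.258), Cldn11 one of -0.24 (interval -0.68 to 0.20, adjusted p = 0.648) and Pcsk5 one of 0.080 (interval -0.16 to 0.32, adjusted p = 0.797).

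Estradiol plus ablation against sham shares its sham arrays with the first comparison and its estradiol arrays with the second, so the values stand here beside those and are no separate evidence. Defb24, Tubb3, Eppin and Serpina5 were lower, and every estradiol array lay below every sham array for each of them. The calls were 4 lower and 0 higher of 7, against 10.4% of all probe sets called lower and 4.15% called higher. Full separation held for these 4 of the 7, against 2.15% of all probe sets in which every estradiol array was below every sham array. Eppin, tested through the sham group alone, is counted in both here too. The median change was -0.80 for the 7 and -0.031 for all probe sets. Of all calls 28.5% were higher on the deposited values, 47.2% with quantile normalization and 36.9% with equal array medians.

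The log2 changes from sham to estradiol plus ablation were -3.20 ± 0.16 for Defb24 (adjusted p = 3.40e-18) and -1.98 ± 0.13 for Tubb3 (adjusted p = 1.91e-14). With the mean of both Tubb3 probe sets the change was -1.06. Eppin changed by -1.40 ± 0.18 (adjusted p = 4.18e-07), or by -1.14 above the filter level. Serpina5 changed by -0.80 ± 0.12 (adjusted p = 3.72e-06), a 1.75-fold lower signal, where ablation alone had given -0.16. The change of Pcsk5 was -0.21 (adjusted p = 0.256), that of Tpd52l1 -0.29 (adjusted p = 0.189) and that of Cldn11 -0.072 (adjusted p = 0.886).

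The levels of the 3 groups thus had the same order for Defb24, Tubb3 and Serpina5, with sham highest and estradiol plus ablation lowest. The neighbouring ablation and estradiol groups did not pass the test for Defb24 and Tubb3, and the neighbouring sham and ablation groups did not for Serpina5. For Eppin and Pcsk5 the ablation mean was the lowest, and its difference from the estradiol mean did not pass. For Tpd52l1 and Cldn11 no pair of groups passed.

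The gene families around the set were read in the other comparisons too. With estradiol added to ablation 4.92% of all probe sets were called lower and 0.592% higher. From sham to estradiol plus ablation the shares were 10.4% and 4.15%. With estradiol added to ablation, 1 of the 10 tested WAP and Kunitz genes was called, Slpi, an inhibitor of leukocyte elastase, which rose by 1.28 ± 0.37 (adjusted p = 0.032). Slpi was near background in the ablation arrays and in the sham arrays, and with values raised to the filter level its change was 0.63. From sham to estradiol plus ablation 6 of the 10 were lower and 0 higher, among them Tfpi with -0.92 and Tfpi2 with -0.64, while 2 of the 6, Eppin and Wfdc2, were near background in the estradiol arrays. Both had entered the test through the sham group. Among the 7 beta-tubulins 3 were lower in that comparison, with Tubb2a at -1.12 ± 0.12 (adjusted p = 9.85e-09) and Tubb5 at -0.42 ± 0.11 (adjusted p = 0.00781) beside Tubb3. Of the 10 tight junction genes 3 were higher, Ocln by 0.47, Cldn12 by 0.46 and Jam2 by 0.40, and Tpd52 was higher by 0.70. Corin acts on the natriuretic peptides, and of the 3 tested genes of that pathway 0 were called with ablation. From sham to estradiol plus ablation 1 was lower, the receptor gene Npr1 by -0.74 ± 0.24 (adjusted p = 0.0275).

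Genes of androgen production and action were read beside the set. Of 15 entries for androgen signalling 11 were tested, with a median change of -0.037 with ablation. Among them 5 were called lower and 1 higher, against 10.3% and 9.15% of all probe sets. This list shares Lhcgr, Hsd17b3, Cyp17a1, Cyp11a1 and Star with the Leydig markers. All calls but that of Fkbp5 are therefore counted again among those markers. Fkbp5, a chaperone of steroid receptors that androgen induces in many tissues, fell by 1.01 ± 0.08 (adjusted p = 1.12e-12) and had a change of 0.051 when estradiol was added (adjusted p = 0.851). Cyp17a1 and Cyp11a1, enzymes of testosterone synthesis, fell by 2.20 ± 0.11 and 1.91 ± 0.10, and Star, which brings cholesterol into mitochondria, fell by 0.86 ± 0.14. With estradiol added, Cyp17a1 fell by a further 1.85 ± 0.14 (adjusted p = 2.89e-11).

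Of 15 other genes that have been put forward as androgen targets of Sertoli cells 12 were tested. With ablation their median change was 0.13. Among them 2 were called lower and 3 higher, against 10.3% and 9.15% of all probe sets. Gja1, a connexin of gap junctions, fell by 1.09 ± 0.12 (adjusted p = 1.39e-08), and Gpd1, a glycerol phosphate dehydrogenase, fell by 0.40 ± 0.08 (adjusted p = 2.61e-04). Gsn, which encodes the actin-severing protein gelsolin, rose by 0.61 ± 0.08 (adjusted p = 1.75e-07). The others that rose were Ocln, given above, and Espn, an actin bundler of Sertoli cell junctions, by 0.65 ± 0.14 (adjusted p = 9.18e-04). This list shares Ocln with the tight junction genes, and Espn and Wt1 with the Sertoli markers.

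Cell type markers moved with the treatments beside these genes. With ablation 10.3% of all probe sets were called lower and 9.15% higher. Of 11 tested Sertoli markers 6 were called higher and 0 lower with ablation, and their mean signal was 1.79 to 2.11 in the sham arrays, 2.31 to 2.58 in the ablation arrays and 2.18 to 2.58 in the estradiol arrays. Inhbb, the inhibin beta B subunit, had the smallest p among them and rose by 1.49 ± 0.12 (adjusted p = 1.35e-12). Of the 10 Leydig markers 7 were called lower and 2 higher with ablation, and their mean was 2.58 to 3.36 in the sham and 1.01 to 1.59 in the ablation arrays. Defb24, Tubb3 and Eppin fell in arrays in which the Sertoli markers were higher and the Leydig markers lower.

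Several of these genes are also active in the epididymis, whose markers were checked for that reason. Of 13 such markers 6 had a probe set, and 4 of them, Adam7, Cst11, Rnase12 and Cdh16, were near background in every group. Aqp9 fell by 1.25 ± 0.10 with ablation (adjusted p = 9.21e-13), while Cst8 had a change of 0.14 (adjusted p = 0.353). The mean of the 3 tested markers was -0.88 to -0.19 in the sham arrays, -1.55 to -0.67 in the ablation arrays and -1.62 to -0.70 in the estradiol arrays. With ablation 10.3% of all probe sets were called lower and 9.15% higher. Markers of peritubular myoid cells were called lower in 4 of 6 cases and higher in 0. Those of macrophages were lower in 5 of 7 and higher in 1, and those of endothelium lower in 2 of 5 and higher in 0. Markers of spermatogonia were called lower in 1 of 6 and higher in 4. Of those called higher, Sall4 and Ret were each above the filter level in 0 sham and 8 ablation arrays. Both entered the test through the treated groups, where they were high, so their inclusion itself favours a difference. With values raised to the level, the change was 0.46 for Sall4 and 0.26 for Ret. The part of any of these cell types in the values of the set was not tested.

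**Figure D4:**
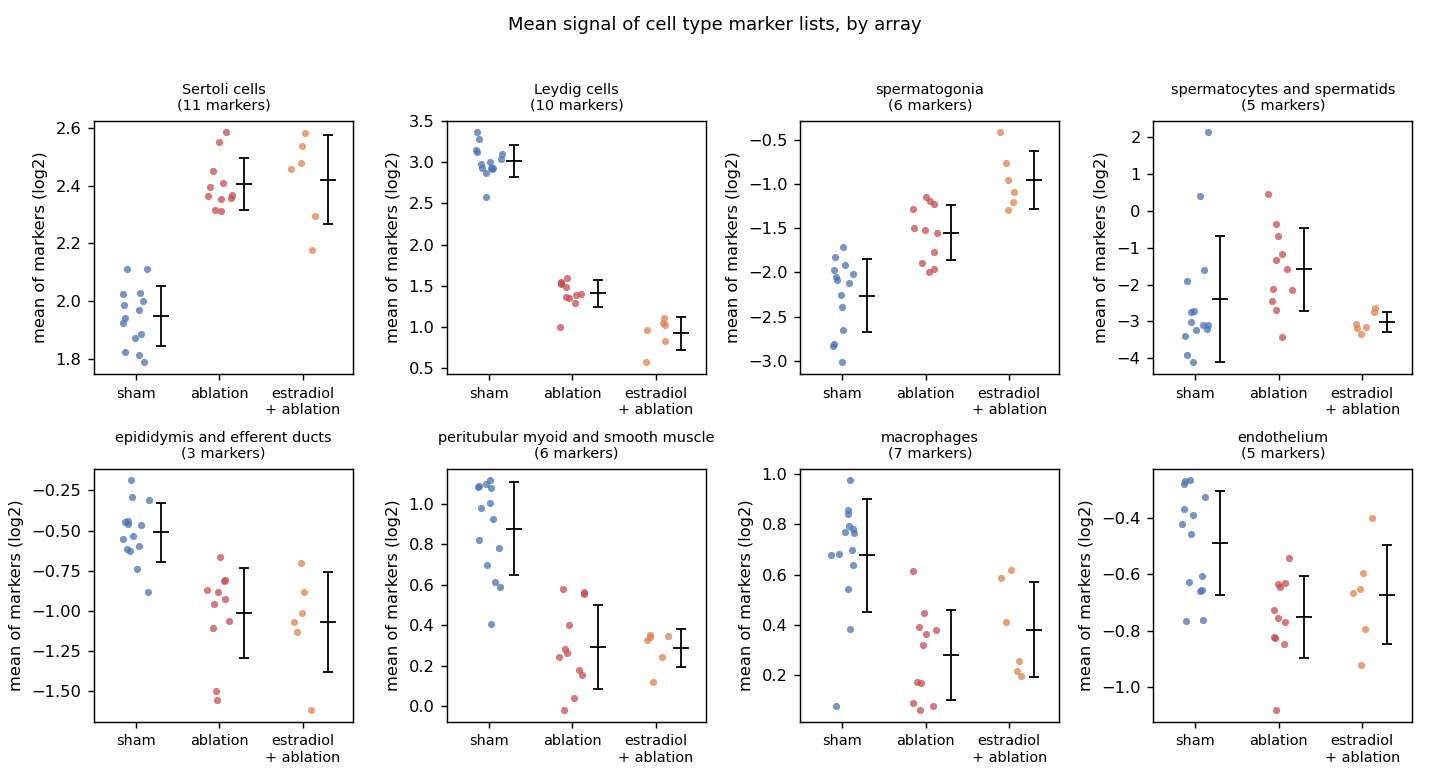
Mean signal (log2) of the tested markers of 8 cell types in each array, by group, with the mean and SD of the group. The Sertoli marker mean lay between 1.79 and 2.11 in the sham arrays and between 2.31 and 2.58 in the ablation arrays, and the Leydig marker mean lay between 2.58 and 3.36 in the sham arrays and between 1.01 and 1.59 in the ablation arrays.

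**Figure D5:**
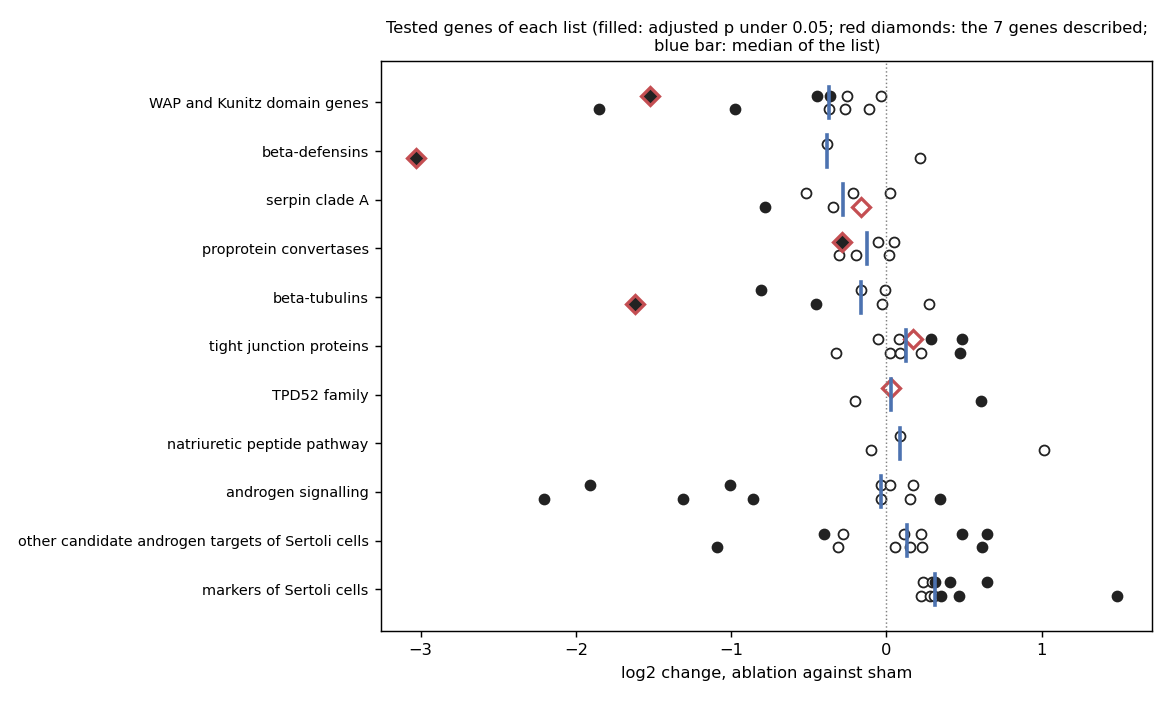
Log2 change with ablation (horizontal axis) of every tested gene in 11 gene lists; filled symbols passed an adjusted p of 0.05, red diamonds are genes of the set and blue bars the list medians. The WAP and Kunitz list had 5 genes called lower and 0 higher, and the Sertoli markers had 6 called higher and 0 lower. Of the 5, Eppin and Wfdc2 entered the test through the sham group, where they were high. The shares of all probe sets were 10.3% called lower and 9.15% called higher.

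The 7 tested genes varied little with each other from array to array once group means were removed. Over their 21 pairs the median r was 0.071, from -0.55 for Tubb3 with Cldn11 to 0.42 for Tubb3 with Tpd52l1. All values of a pair come from the same 31 arrays and share their scaling, so these are descriptions. Tubb3 and Cldn11 also ran in opposite directions against the bright-signal level of the array, at r = -0.61 and r = 0.95.

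The 3 genes closest to each by the same within-group r were looked up, again over 31 shared arrays. The search covered the 11387 genes with a probe set kept by the filter. An r picked as the largest of so many is a description, and no comparison with unrelated genes was made. For Cldn11 the 3 genes were Aard (r = 0.96), Itm2b (0.96) and Selenop (0.94). For Tubb3 they were Slc25a1 (0.83), Rabac1 (0.83) and Ppp1r11 (0.82). Cldn11 and Tubb3 followed the bright-signal level of the array themselves, at r = 0.95 and r = -0.61, and its part in these values was not tested. For Defb24 they were Cops9 (0.70), Rnf151 (0.68) and Banp (0.64), and for Eppin Gucy2c (0.67), Tmem243 (0.64) and Ttpa (0.63). Eppin was above the filter level in 1 ablation and 1 estradiol array, so its values rest partly on signals near background. Serpina5 had Timm9 (0.72), Gsta4 (0.69) and Hao2 (0.69), Tpd52l1 had Pcmt1 (0.72), Nuak2 (0.70) and Arglu1 (0.69), and Pcsk5 had Armcx1 (0.65), Col13a1 (0.65) and Zfp536 (0.62). The Pcsk5 values rest partly on few arrays: without the 2 arrays farthest from the median of Pcsk5 its 3 values were 0.46, 0.39 and 0.37. Without their own 2 farthest arrays, Eppin with Ttpa had 0.50 and Tpd52l1 with Arglu1 0.53, while Defb24 with Cops9 had 0.81. In the 6 estradiol arrays alone, Tpd52l1 had r = -0.19 with Pcmt1, -0.13 with Arglu1 and 0.50 with Nuak2.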

How the data were processed

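The authors deposited 1 table of log2-scale MAS5 signals for 31 arrays, the algorithm per the submitters' processing notes, with its version and scaling not given in the sources used here. The log base is not stated and was read as 2, so folds rest on that reading. The 6 estradiol arrays carry 2 decimals and the others more. Values were used as deposited, without pseudocount or further normalization.

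Of 31099 probe sets, 57 controls were left out. Names came from the platform annotation, updated by Entrez number for 20758 of the 20826 probe sets with 1 symbol, while 436 had several and 9780 none. A gene was read from its probe set of highest mean. Groups followed the treatment labels. Differences were tested with limma 3.58.1 in R 4.3.3 (1 fit of 31 arrays in 3 groups, variance trend, 2-sided, Benjamini-Hochberg over 21269 probe sets kept by the filter), and a call is an adjusted p under 0.05. No batch term could be fitted beside the estradiol group. The code was tested on simulated data.

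The genes and gene lists were chosen with earlier results of these data known. All genes of the set are named, and of each list up to 4 called genes of smallest adjusted p in a comparison, others being marked as added. The alternatives were no filter or a stricter one, quantile normalization, median centring, other variance models, array weights, values raised to the filter level, means of probe sets, a replicate block, sham arrays by description and leaving out arrays.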

Additional observations from a re-analysis of the deposited data

How the results depend on the processing

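Most calls of the set did not change: of 301 changes of its genes recomputed under settings other than leaving out 1 array 285 kept their direction and their side of the threshold, 3 lost a call, all of Pcsk5 with ablation, and 13 turned sign, all of them uncalled. Of 651 changes recomputed with 1 array left out 645 kept both, 1 lost a call (Pcsk5) and 5 turned sign.

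The number of all probe sets called against sham fell from 4128 to 2345 with ablation, and from 3093 to 1702 with estradiol plus ablation, when only the 4 sham arrays described as irradiated were used, a smaller group. For estradiol plus ablation against ablation it fell from 1173 to 710 without the compressed arrays, an alternative added after seeing the data, as was leaving out the arrays with Tnp1.

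Sign changes, whose cause was not tested, were these. The change of Cldn11 with ablation was -0.090 with the mean of its probe sets and -0.013 without the compressed arrays. That of Cldn11 between estradiol plus ablation and ablation was 0.067 and 0.089 under the same settings, and against sham it was 0.059 with array weights, 0.039 with the irradiated sham arrays, 0.076 without the compressed arrays and between -0.17 and 0.097 with 1 array left out. The change of Tpd52l1 with ablation was -0.029 with array weights, -0.083 with the irradiated sham arrays, -0.071 without the arrays with Tnp1 and between -0.029 and 0.071 with 1 array left out. The change of Eppin between estradiol plus ablation and ablation was -0.0099 with values raised to the filter level and -0.057 without the compressed arrays. With 1 array left out the Pcsk5 change with ablation lay between -0.33 and -0.25.

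Deviations from group means were compared between arrays of the same replicate number. They correlated at -0.0856 to 0.0467 over 11 pairs of sham and ablation arrays and at -0.182 to 0.0594 over 6 of ablation and estradiol arrays. These deviations thus showed no pairing by replicate number, which does not exclude one. Over 6 pairs of sham and estradiol arrays the range was -0.0107 to 0.376, with 3 above 0.1. Replicates 1 and 5 are compressed arrays in both of those groups, and their part in these values was not tested. With the replicate block the numbers of probe sets called were 3185 with ablation, 878 for estradiol plus ablation against ablation and 2349 against sham, the calls of the set stayed 4, 1 and 4, and the Eppin change between estradiol plus ablation and ablation was -0.015. Signals below the filter level limit what can be said of Rhox5, Cldn3 and treated Eppin.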
